A study of Mus musculus with 2 samples.

Results

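The Hedgehog genes described here are 9 genes with 42 annotated transcripts, out of 55536 genes and 141767 transcripts in the deposited tables. They were chosen by gene symbol and role in the pathway: the ligands Shh, Dhh and Ihh, the receptor Ptch1, the transducer Smo, the inhibitor Sufu and the transcription factors Gli1, Gli2 and Gli3. Total RNA was sequenced from adrenal glands of male B6CASTF1/J mice, hybrids of a C57BL/6J and a CAST/EiJ parent, at an age of 14 days. The labels name no treatment, and both libraries, called replicate 1 and replicate 2, belong to 1 group, so no conditions could be compared and no p-value is given. The labels speak of pools of males but do not say how many mice entered each library, and their pool numbers are the same in the description of the samples but differ in that of the tissue, so the SD (n = 2) may be technical in part. TPM, the number of transcripts of a gene expected in a fixed total of transcripts, is a level corrected for transcript length and depth, and the values below are RSEM TPM unless kallisto, the other deposited quantification, is named.

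In Hedgehog signalling a secreted ligand binds Ptch1, which then stops holding back Smo, and Smo in turn lets the Gli factors act on their targets. Gli1 and Ptch1 are themselves targets, so their messengers serve as readouts of the pathway. Sufu binds Gli proteins and restrains them, Gli3 is known mainly as a repressor after partial cleavage, and Gli2 mainly as an activator. In the mouse adrenal gland, Shh is made by cells of the outer cortex below the capsule, whereas Gli1 and Ptch1 mark the mesenchymal cells of the capsule that receive it. Dhh is known from Schwann cells and endothelium, and Ihh from cartilage and gut.

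Depth was similar in both libraries, with 32860862 and 36143532 expected counts on genes in replicates 1 and 2, of which the 9 members held 5154 and 5285. Markers of steroidogenic cortex (4 of 4 genes) and chromaffin cells (4 of 4) were all found at 1 TPM or more in both, and 4 adipocyte genes summed to 2718 TPM and 2760 TPM. The libraries stood apart in the summed level of 4 hepatocyte genes, which was 235.6 TPM in replicate 1 against 4138 TPM in replicate 2. They also did in that of 4 lymphocyte genes, which was 37.9 TPM in replicate 1 against 5.52 TPM in replicate 2. The part of other tissue in the Hedgehog values was not tested.

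Of the 9 members, 6 reached 1 TPM in both libraries (Smo, Ptch1, Sufu, Shh, Gli3 and Gli1), and Dhh, Gli2 and Ihh did not. Among all 22015 nuclear protein-coding genes, 54.2% reached that level. The order of mean level ran from Smo and Ptch1 through Sufu, Shh, Gli3, Gli1, Dhh and Gli2 to Ihh. The 2 TPM values of neighbours in this order spanned separate ranges, except Sufu with Shh and Dhh with Gli2, whose ranges overlapped. Dhh was below Gli2 in replicate 1 and above it in replicate 2. The deposited credibility bounds were wider. Those of Smo and Ptch1 overlapped in both libraries, at 11.1 to 12.4 and 9.56 to 12.2 TPM in replicate 1. Those of Gli1 and Dhh overlapped in replicate 2, at 0.956 to 1.66 and 0.614 to 1.36 TPM. By kallisto every neighbour kept the same order in both libraries. In bulk tissue, a low level from many cells and a high level from few cells cannot be told apart.

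**Figure D1:**
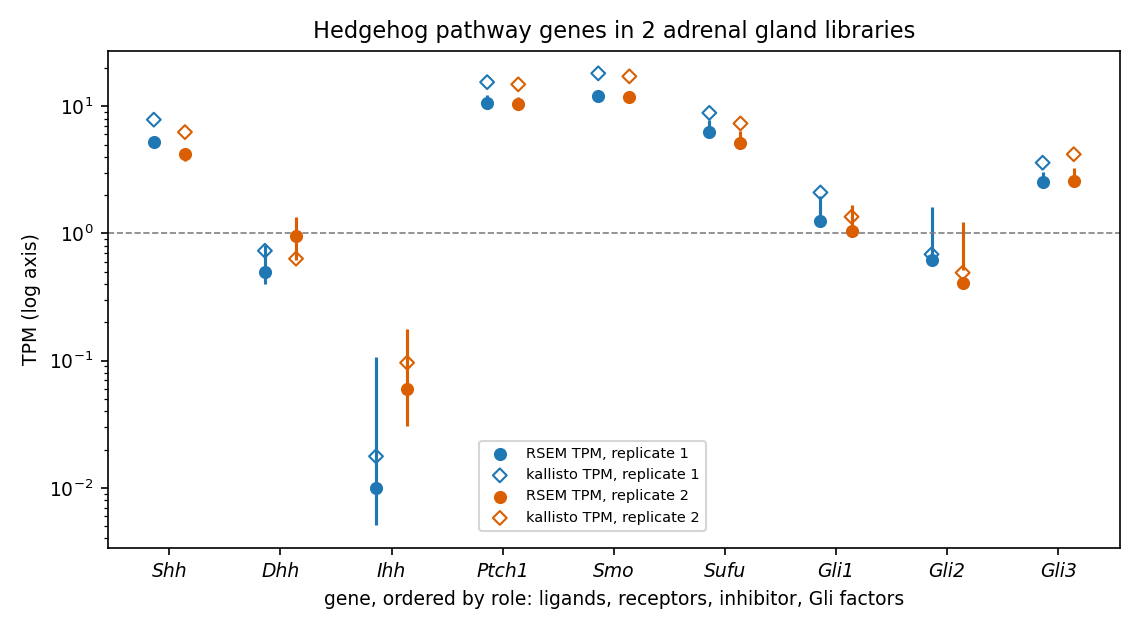
Level of each Hedgehog gene in TPM on a log axis, with filled points for RSEM, open diamonds for kallisto and vertical lines for the deposited RSEM credibility bounds, in blue for replicate 1 and orange for replicate 2. Smo and Ptch1 lie highest, at 10.42 to 11.99 TPM by RSEM, and Ihh lies lowest, at 0.01 and 0.06 TPM, below the dashed line at 1 TPM.

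Shh was the main Hedgehog ligand in the tissue. Its level was 5.25 and 4.18 TPM in replicates 1 and 2, a mean of 4.715 ± 0.757 TPM (SD, n = 2), from 474 and 409 expected counts. Replicate 1 was the higher library, and the deposited credibility bounds, 4.69 to 5.61 TPM in replicate 1 and 3.72 to 4.51 TPM in replicate 2, did not overlap. Shh made up 85.8% ± 7.50 of the summed TPM of the 3 ligands, 91.1% in replicate 1 and 80.5% in replicate 2. The share was 90.4% ± 1.22 by kallisto and 85.4% ± 2.67 of the expected counts. The wider spread by RSEM TPM enters in part through the Dhh level, described below. Shh lay above 61.2% of nuclear protein-coding genes but above only 28.8% of those that reached 1 TPM in both libraries. The gene (ENSMUSG00000002633.4) lies on the minus strand of mm10 chromosome 5, from 28456815 to 28467256, and has a single annotated transcript, so no split between isoforms enters its value. Exons of 2 non-coding genes on the opposite strand overlap it, 9530036O11Rik with 6 and 3 counts and Gm26894 with 12 and 11.

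Genes of the cells around Shh were far more abundant. Nr5a1, the transcription factor of steroidogenic cells, exceeded Shh 22.9-fold ± 5.67 on the TPM scale, and Cyp11b2, which makes aldosterone in the outer cortex, exceeded it 8.04-fold ± 0.835. The 5 zona glomerulosa markers were all found in both libraries, with summed levels of 416.65 and 408.2 TPM in replicates 1 and 2. Most of the sum came from Kcnk3, at 180.42 and 189.22 TPM, and Dab2, at 112 and 113.68 TPM, both slightly higher in replicate 2. Agtr1a, at 68.63 and 56.42 TPM, Cyp11b2, at 39.09 and 36.06 TPM, and Hsd3b6, at 16.51 and 12.85 TPM, were lower there. The counts of Cyp11b2 were level, at 1960.13 and 1960.2. The part of zona glomerulosa tissue in the Shh level was not tested.

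Dhh, the ligand of Schwann cells and endothelium, was at 0.5 and 0.95 TPM in replicates 1 and 2. The near doubling in TPM did not stand in the counts, which were 68.31 and 76, nor in the kallisto level, which was 0.731 and 0.633 TPM in replicates 1 and 2. The gene-level effective length that RSEM used to turn counts into TPM was 1.84-fold longer in replicate 1, at 4143 bases against 2246.67 bases. This followed from the short single-exon transcript Dhh-202, to which RSEM gave 10.76 counts and 53.7% of the gene's TPM in replicate 2 and 0 counts in replicate 1, whereas kallisto gave it 0 counts in both libraries. The long transcript Dhh-201 alone was at similar levels, 0.5 TPM and 0.44 TPM. An effective length that shifted over 1.5-fold between the libraries was rare, found in 1.69% of 14413 nuclear protein-coding genes with at least 10 counts in each.

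The bases where the Dhh transcripts part are shown because they decide which form a read counts for. Both transcripts share the end of exon 1, in lower case. In capitals, Dhh-201 goes on into exon 2, and Dhh-202 reads on past the exon 1 end for 157 bases, of which the annotation calls 111 coding.
Dhh-201: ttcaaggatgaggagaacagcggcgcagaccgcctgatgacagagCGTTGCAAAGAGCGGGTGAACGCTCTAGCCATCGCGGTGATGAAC
Dhh-202: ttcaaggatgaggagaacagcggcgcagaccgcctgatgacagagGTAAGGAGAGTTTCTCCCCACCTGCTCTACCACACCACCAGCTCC
The sequences come from GENCODE M21 transcripts (mm10, minus strand of chromosome 15). The capitals of Dhh-201 lie at 98895030 to 98895074, and the Dhh-202 sequence runs without a gap from 98898014 down to 98897925. Past the shared bases, Dhh-202 thus holds what is intron 1 of Dhh-201. Total RNA libraries also hold unspliced RNA, and whether the Dhh-202 counts came from it was not tested.

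Dhh (ENSMUSG00000023000.5) spans 98891152 to 98898540, and its exons overlap those of Rhebl1, on the same strand, over a stretch of up to 281 bases. Reads within that stretch could not be assigned to either gene with certainty. Rhebl1 had 35.69 counts in replicate 1 and 28 in replicate 2, and the part of shared reads in the Dhh counts was not tested. Exons of the antisense gene Gm49442, on the opposite strand, overlap Dhh over a stretch of up to 724 bases. Gm49442 had 6 counts in replicate 1 and 0 in replicate 2. Of the 6 Schwann and sustentacular markers, 3 reached 1 TPM in both libraries, and the 5 endothelial markers all did. The summed level of the Schwann list was 18.4 and 27.6 TPM in replicates 1 and 2, carried by S100b at 12.9 TPM and 22.27 TPM. Sox10, which defines the Schwann lineage, was at 0.89 and 0.62 TPM in replicates 1 and 2, the opposite direction.

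Ihh, the ligand of cartilage and gut, was close to absent. It had 1 expected count in replicate 1 and 5 in replicate 2, or 0.01 TPM and 0.06 TPM, and made up 0.665% ± 0.695 of the ligands' TPM. The credibility bounds overlapped, at 0.00508 to 0.106 TPM in replicate 1 and 0.0305 to 0.176 TPM in replicate 2. Of 5 chondrocyte and gut markers, none reached 1 TPM in both libraries by RSEM and 1 did by kallisto, Vil1 at 1.26 and 2.23 TPM. Cdx2 of the intestine had 0 counts in each. Ihh (ENSMUSG00000006538.12) lies on chromosome 1 from 74945315 to 74951672, and all of its counts fell on the coding transcript Ihh-201.

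Ptch1, the ligand receptor and a target of the pathway, was at 10.53 and 10.42 TPM in replicates 1 and 2. The libraries were nearly level, and its mean of 10.475 ± 0.0778 TPM lay above 76.1% of nuclear protein-coding genes. Expected counts were 1789 and 1925. It exceeded Shh 2.25-fold ± 0.344 and Gli1 9.22-fold ± 1.13, both on the TPM scale. The gene (ENSMUSG00000021466.12) lies on the minus strand of chromosome 13 from 63508328 to 63573598.

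Ptch1 was also the member with the most transcripts, 10. Ptch1-202 held the largest share of the gene's TPM, 39.6% in replicate 1 and 36.6% in replicate 2 by RSEM, and 37.9% and 39.0% by kallisto. Ptch1-201 came next among the long forms, with 24.0% and 27.9% by RSEM and 23.0% and 24.1% by kallisto. Ptch1-202 exceeded Ptch1-201 in each library by both quantifications, from 1.31-fold to 1.65-fold in TPM, and together they held 85.8% to 89.9% of the gene's counts. The rest was less certain. RSEM gave 29.1% and 28.3% of the TPM to the 809-base transcript Ptch1-207 and none to Ptch1-203 or Ptch1-205, whereas kallisto gave none to Ptch1-207 and 20.5% and 17.6% to Ptch1-203, with 9.61% and 12.4% on Ptch1-205. The 3 short forms together were alike by both, at 28.3% to 30.1% of TPM. That share rested on few counts. By RSEM, Ptch1-207 had 71.42 and 74.59 counts in replicates 1 and 2, 3.99% and 3.87% of the gene's counts. By kallisto, Ptch1-203 had 43.96 and 40.11 and Ptch1-205 had 31.32 and 42.81. The short forms gave 3.06 and 2.95 TPM of the gene's RSEM level, which enters its ratios to Shh and Gli1.

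The long forms differ in what they can encode. In Ptch1-201 coding begins in exon 1, and in Ptch1-202 it begins at an ATG in exon 3, which in Ptch1-201 is preceded by 137 codons in the same frame. The capitals below mark the last 45 bases of the coding exon 1 of Ptch1-201 and of Ptch1-205, and the lower case the exon 2 bases that follow in both. For Ptch1-202 the capitals mark the start codon.
Ptch1-201: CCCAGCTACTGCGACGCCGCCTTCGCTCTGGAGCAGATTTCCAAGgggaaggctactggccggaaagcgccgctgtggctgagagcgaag
Ptch1-205: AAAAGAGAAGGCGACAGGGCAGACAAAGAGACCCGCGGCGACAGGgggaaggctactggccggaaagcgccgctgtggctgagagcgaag
Ptch1-202: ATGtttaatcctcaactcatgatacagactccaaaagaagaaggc
On mm10 chromosome 13, minus strand, the exon 1 bases lie at 63565362 to 63565406 for Ptch1-201 and at 63573250 to 63573294 for Ptch1-205, and the Ptch1-202 bases at 63548082 to 63548126 (GENCODE M21 transcripts).

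**Figure D2:**
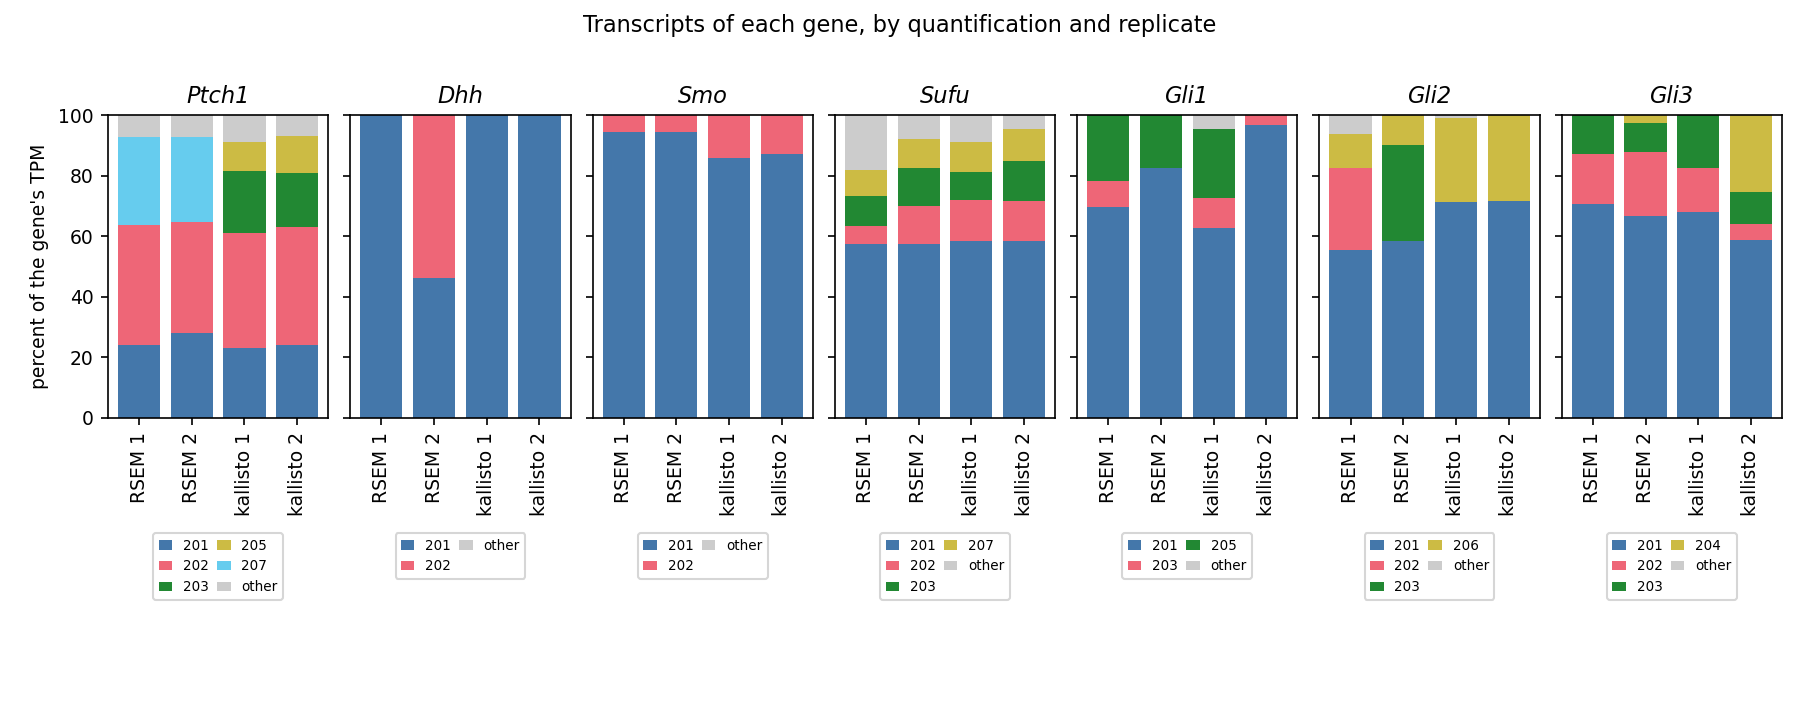
Percent of each gene's TPM on its transcripts, as stacked bars for RSEM and kallisto in replicates 1 and 2, with transcript numbers in the legend below each panel and the remaining transcripts in grey. Ptch1-201 and Ptch1-202 keep like shares in all 4 bars, while Dhh-202 appears in RSEM replicate 2 alone.

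Smo, the membrane protein that Ptch1 holds back, had the highest TPM of the members in both libraries, with credibility bounds that overlapped those of Ptch1. It was at 11.99 and 11.85 TPM in replicates 1 and 2, a mean of 11.92 ± 0.0990 TPM, and exceeded Ptch1 1.14-fold in each library. The coding transcript Smo-201 held 94.4% and 94.6% of its TPM by RSEM. Smo-202, a single-exon transcript typed as a retained intron, held 5.59% and 5.40% by RSEM and 14.0% and 12.7% by kallisto. Smo (ENSMUSG00000001761.7) lies on the plus strand of chromosome 6 from 29735503 to 29761365.

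Sufu, the inhibitor that binds Gli proteins, was at 6.29 and 5.14 TPM in replicates 1 and 2, so replicate 1 was the higher, as for Shh. The mean was 5.715 ± 0.813 TPM, and Sufu exceeded Gli1 4.99-fold ± 0.0634 and Gli3 2.23-fold ± 0.330. The credibility bounds overlapped, 5.73 to 7.76 TPM in replicate 1 and 4.75 to 6.41 TPM in replicate 2. Sufu-201 held 57.4% and 57.3% of the TPM by RSEM and 58.4% and 58.3% by kallisto. The remainder was spread over 6 transcripts, of which Sufu-202, Sufu-203 and Sufu-207 reached 10% in at least 1 of the 4 estimates. Sufu (ENSMUSG00000025231.17) lies on the plus strand of chromosome 19 from 46396896 to 46488804.

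Gli3 was the most abundant of the Gli factors. It was at 2.55 and 2.57 TPM in replicates 1 and 2, a mean of 2.56 ± 0.0141 TPM and the most even of the members by RSEM TPM, from 533 and 554 counts. It made up 60.8% ± 4.41 of the summed Gli TPM, against 27.1% ± 1.70 for Gli1 and 12.1% ± 2.71 for Gli2. By posterior mean TPM, an average over the possible read assignments, the share of Gli2 was 19.4% ± 2.59 and that of Gli3 53.1% ± 4.33, with Gli3 still the largest. Of the expected counts, which are not corrected for length, its share was 73.5% ± 1.66, and its main transcript Gli3-201 is 8170 bases long. Gli3-201 held 70.5% and 66.5% of the gene's TPM by RSEM and 68.1% and 58.9% by kallisto, where Gli3-204, a 466-base form with 4.83 estimated counts, took 25.4% in replicate 2 and none in replicate 1. Gli3 (ENSMUSG00000021318.15) lies on the plus strand of chromosome 13 from 15463235 to 15730026.

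Gli1, the transcription factor that is also a target, was low. It was at 1.25 and 1.04 TPM in replicates 1 and 2, just above the 1 TPM line, and lay above 0.620% of the nuclear protein-coding genes that reached that line in both libraries. Counts were even, 124 and 126. Short transcripts typed as retained introns took 30.4% of the gene's TPM in replicate 1 and 17.3% in replicate 2, while the full coding transcript Gli1-201 was at 0.87 and 0.86 TPM in replicates 1 and 2. By RSEM, Gli1 thus counted among the 6 members at 1 TPM only with these short forms included. Gli1-201 alone was at 1.31 TPM in each library by kallisto. By kallisto the retained-intron share was 32.8% in replicate 1 and 3.27% in replicate 2, on at most 5.93 estimated counts a transcript, and the gene's level was 2.10 TPM and 1.35 TPM.

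Gli1 (ENSMUSG00000025407.7) lies on the minus strand of chromosome 10 from 127329882 to 127341974. Its exons overlap those of Arhgap9, on the opposite strand, over a stretch of up to 62 bases. Arhgap9 had 272 counts in replicate 1 and 39 in replicate 2, whereas the Gli1 counts were even. The kit is directional per the labels, but whether strand was used in counting is not given in the sources used here.

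Gli2, known mainly as an activator, was at 0.62 and 0.41 TPM in replicates 1 and 2, from 80 and 62 counts. It was the only member whose TPM lay outside its own credibility bounds, below them in both libraries. Those bounds were 0.684 to 1.61 TPM in replicate 1 and 0.514 to 1.24 TPM in replicate 2, around posterior means of 1.12 and 0.86 TPM. The same was true of 3.10% of 16445 nuclear protein-coding genes with counts in both libraries. Gli2-201 took 93.3% and 90.8% of the gene's expected counts but 55.6% and 58.5% of its TPM, the rest going to transcripts with under 4 counts each, and 4 of the 9 transcripts had no counts in any of the 4 estimates. Gli2 (ENSMUSG00000048402.14) lies on the minus strand of chromosome 1 from 118834132 to 119053619.

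TPM ratios of replicate 2 over replicate 1 ran from 0.661 for Gli2 to 1.9 for Dhh and 6 for Ihh, all 3 under 1 TPM in both libraries. None of the 6 members at 1 TPM or more in both differed over 2-fold in TPM, against 2.84% of 11942 nuclear protein-coding genes, and none did so over 1.5-fold, against 7.41%. With 6 genes these counts are near the background and say nothing particular to the pathway. The median log2 ratio of the 6, replicate 2 over replicate 1, was -0.14, and that of all 11942 genes was -0.066. On the TMM scale of the expected counts, which puts the bulk of genes at equal levels, Shh in replicate 2 was 0.843 of its level in replicate 1, with a 95% exact interval of 0.737 to 0.964. Sufu was at 0.890, with an interval of 0.796 to 0.995. These intervals cover counting error only, and both ratios were within the central 95% of the TPM ratios of the 11942 genes, 0.602 to 1.61.

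For the remaining members the interval included 1. Ptch1 was at 1.05 (0.985 to 1.12), Smo at 1.05 (0.974 to 1.13), Gli3 at 1.02 (0.900 to 1.15), Gli1 at 0.993 (0.769 to 1.28) and Gli2 at 0.757 (0.535 to 1.07). Dhh was at 1.09 (0.777 to 1.54), so the 1.9-fold ratio of its TPM was above what its counts allow on this scale. The ratio of Ihh could not be fixed, at 4.89 with an interval from 0.547 to 231.1. Ihh was the 1 of 9 members over 2-fold in TPM when no minimum beyond 1 count was set, against 12.1% of 16411 nuclear protein-coding genes, and 32.5% of the 3881 with a mean under 1 TPM.

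**Figure D3:**
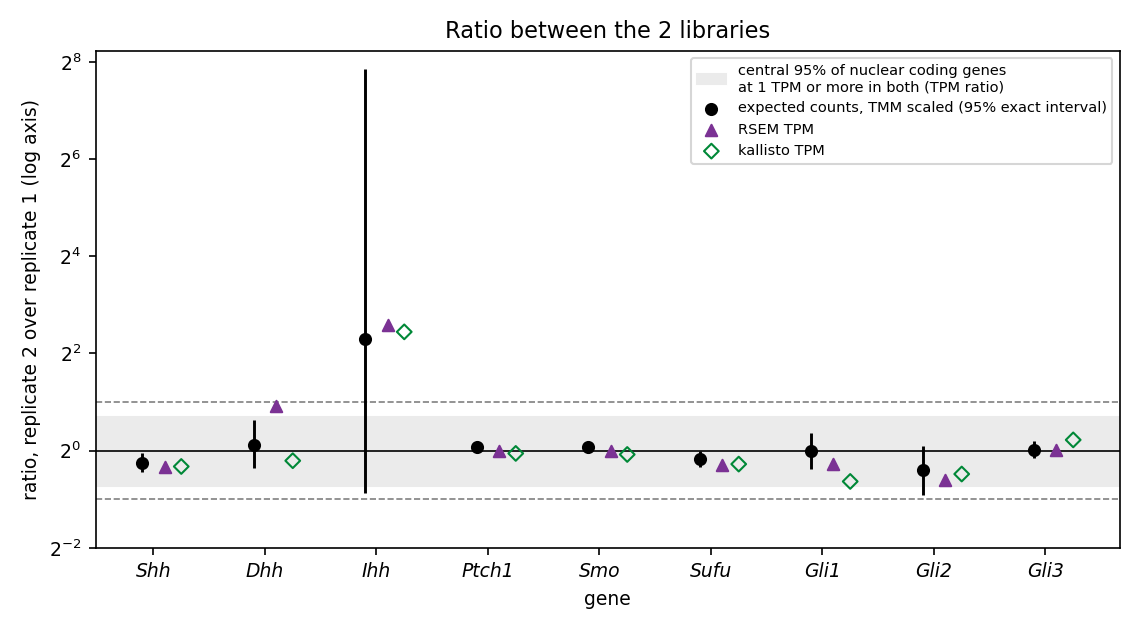
Ratio of replicate 2 over replicate 1 for each Hedgehog gene on a log axis, from TMM-scaled expected counts (black, with 95% exact intervals), RSEM TPM (purple triangles) and kallisto TPM (green diamonds). The grey band, 0.602 to 1.61, is the central 95% of the TPM ratios of 11942 nuclear protein-coding genes at 1 TPM or more in both libraries. Dashed lines mark 2-fold. Dhh, Gli2 and Ihh were under 1 TPM, so the band was not built from genes at their level. Of genes with a mean under 1 TPM, 32.5% differed over 2-fold, against 2.84% of those in the band's set. Dhh lies above the band by RSEM TPM only, and the Ihh interval reaches from 0.547 to 231.1.

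Other genes of the pathway were taken from 4 lists with 41 genes, of which 34 reached 1 TPM in both libraries. Among all nuclear protein-coding genes 54.2% did, which is the share to set beside each list below. The median log2 ratio of the 34 was -0.092, and 0 of the 34 differed over 2-fold, beside 2.84% of all genes tested. By kallisto 1 of 34 did, Arrb2, a beta-arrestin, at 20.5 and 9.30 TPM, a 2.20-fold difference. Of the 6 genes for ligand release, 5 reached that level. Disp2, of the family that releases lipid-bearing ligand, was the highest at 7.28 ± 0.269 TPM, and Scube2, a secreted protein that helps to carry the ligand away, was the lowest at 0.190 ± 0.0283 TPM.

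Gpc3, Gas1 and Boc were above Ptch1 in both libraries. Of the 6 co-receptors and antagonists 5 reached 1 TPM in both libraries. Gpc3, a glypican that binds ligand and competes with Ptch1, was the highest at 15.86 and 17.62 TPM in replicates 1 and 2. The endocytic receptor Lrp2 was the lowest at 0.215 ± 0.00707 TPM. The ligand co-receptors Gas1, Boc and Cdon were at 13.5 ± 0.601, 11.965 ± 0.516 and 6.23 ± 0.382 TPM; they were named after their values were seen.

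Hhip, a feedback target that binds ligand as a decoy, was low but present. It was at 2.08 and 2.46 TPM in replicates 1 and 2. Ptch1 exceeded Hhip 4.65-fold ± 0.585. Of 8 further targets described in other tissues, 5 reached 1 TPM in both libraries. That is near the 54.2% of all nuclear protein-coding genes and says nothing particular to the targets. Ccnd2, a D-type cyclin that many pathways control, was the highest at 55.6 ± 1.10 TPM. The forkhead gene Foxf2, a target in gut mesenchyme, was the lowest, with 1 and 2 counts.

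The cilium and Gli processing list was nearly complete, with 19 of 21 genes at 1 TPM or more in both libraries. Prkaca, the catalytic subunit of protein kinase A, which marks Gli proteins for cleavage and also acts below the ACTH receptor, had the highest mean at 66.92 and 80.91 TPM in replicates 1 and 2. Gpr161, a ciliary receptor that keeps protein kinase A active, was the lowest at 0.67 TPM and 0.46 TPM. Of the 19, 3 were higher in replicate 2, and the median log2 ratio of the 19 was -0.16. The median of all 11942 genes was also negative by TPM, at -0.066. It was 0.022 by TMM and -0.15 by spike-ins, so the direction of the 19 depends in part on the scaling.

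**Figure D4:**
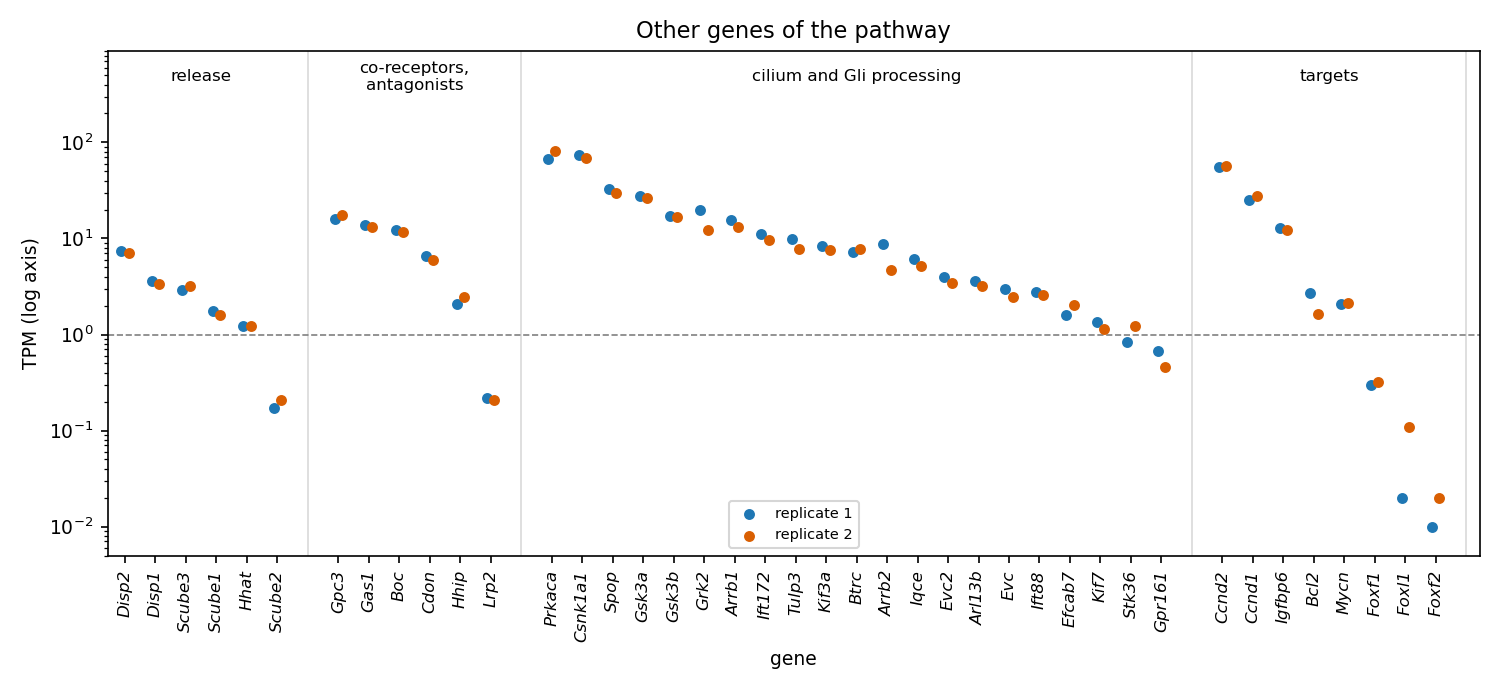
TPM on a log axis of the 41 other pathway genes in replicate 1 (blue) and replicate 2 (orange), grouped by list and ordered by mean level, with a dashed line at 1 TPM. By RSEM, none of the 34 genes at or above the line in both libraries differs over 2-fold, Foxl1 below it does (0.02 and 0.11 TPM), and mean levels reach from Foxf2 at 0.01 and 0.02 TPM to Prkaca at 66.92 and 80.91 TPM.

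Markers of capsule and mesenchyme were present beside Gli1 and Ptch1, though bulk values do not show which cells their messengers came from. Of the 9 genes, 8 reached 1 TPM in both libraries, and Wt1 was the exception at 0.795 ± 0.0778 TPM, though by kallisto all 9 did. The summed level was 343 and 277.6 TPM in replicates 1 and 2, and most of that difference was in the collagens, with Col1a1 at 131.6 and 96.7 TPM and Col1a2 at 97.6 and 77.5 TPM. Of the 8 genes, 3 were higher in replicate 2, namely Lum, Tcf21 and Rspo3. Ptch1 was at 10.53 TPM and 10.42 TPM in the same libraries, and the part of capsule tissue in the levels of Gli1, Ptch1 and these markers was not tested.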

How the data were processed

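Gene tables of expected counts and TPM, with posterior mean TPM and credibility bounds (a signal with no fixed total), were deposited by the authors, made from transcriptome alignments to mm10 with GENCODE M21, per the list of deposited files. Columns carry the names RSEM uses, per the file headers; effective length, another unit (bases), is in the same tables. The other transcript tables hold estimated counts and TPM, with column names of kallisto, per the file headers. Tool versions, the aligner and the level of the credibility bounds were left unstated in the labels and headers read here.

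Members were found by symbol, and both libraries were kept as separate samples: their counts differed by a chi-square of 35.2 per degree of freedom over genes. kallisto TPM was summed to genes. Found means at least 1 TPM in both libraries, and ratios use no pseudocount. TMM factors came from edgeR 4.0.16 in R 4.3.3 on rounded expected counts, and 95% exact intervals of count ratios from scipy 1.17.1; the rest used Python 3.11.15 with pandas 2.3.3. The ratio and interval steps were tested on simulated data. All members are named; of other genes, those of the lists with the highest and lowest level, a feedback target and markers; transcripts with at least 10% of the gene's TPM in any estimate. With 1 group of 2 libraries, genes of like pattern were not sought. Of the lists, 1 gene is not reported here. Members and lists were chosen with earlier results of these data known.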

Additional observations from a re-analysis of the deposited data

How the results depend on the processing

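The count of 6 members at 1 TPM or more in both libraries was also 6 by kallisto and by posterior mean TPM, 7 at 0.5 TPM and 8 with at least 10 expected counts. The count of 0 members over 2-fold stayed 0 by kallisto, posterior mean TPM, log2(TPM + 1), TMM and spike-in scaling and at 1.5-fold, and became 1 (Ihh) with no minimum beyond 1 count. Gli1 made up 27.1% of Gli TPM but 16.9% of Gli expected counts, which are not corrected for length; without each replicate it was 25.9% to 28.3%. The Shh share of ligand TPM was 85.8%, 90.4% by kallisto, and 80.5% to 91.1% without each replicate. Of alternatives chosen after seeing the data, kallisto raised the count of other pathway genes over 2-fold from 0 to 1 and also gave 34 of 41 at 1 TPM or more, and posterior mean TPM raised the Gli2 share from 12.1% to 19.4%. kallisto levels were higher for 8 of 9 members, the exception being Dhh, and the median gene was 1.52-fold higher by kallisto. Shh, Sufu and Gli2 were lower in replicate 2 under all 6 alternatives for their ratio. Gli1 kept the same sign, but by TMM it was nearly level, at log2 -0.010 from 124 and 126 counts. The Dhh ratio was log2 0.93 by TPM, 0.12 by TMM and -0.21 by kallisto. The signs for Ptch1 and Smo turned with TMM, to 0.072 and 0.067, and that for Gli3 turned with spike-in scaling, to -0.072, and with TPM of nuclear coding genes. The median gene was at -0.066 by TPM, 0.022 by TMM and -0.15 by spike-ins. Depth limits Ihh, Dhh, Gli2 and Gli1, with at most 126 counts a library.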

Other observations

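Promoter windows of 7 of the 9 members, from 250 bases before to 50 after the gene start, were in the RefSeq table for GRCm38.p6 (Shh and Gli1 were not). The Gli binding motif GACCACCCA, searched on both strands, was in 0 of these 7 windows, and in 0.253% of the 32851 windows of the table. No match says only that these letters are not in these windows.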
